A study of Mus musculus with 8 samples.

Results

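The EGF receptor gene Egfr, its partner receptor Erbb2, the ligand genes Hbegf, Areg and Ereg and the feedback inhibitor gene Errfi1 were followed in fibroblasts given retinoic acid (RA). These 6 genes of the 22200 in the deposited table were chosen by symbol, with their values in these libraries already known, so their levels and differences are given as a description without a test. The cells were immortalized mouse embryonic fibroblasts (MEFs) on the C57BL/6 background, all labelled TAF4-/-, that is, without the TAF4 subunit of the general transcription factor TFIID. There were 3 groups: 3 libraries from cells with no treatment, labelled 12 h, 3 from cells given RA for 12 h, and 2 from cells given RA for 72 h. According to the study's methods, RA was all-trans retinoic acid and the line was derived by Cre-mediated removal of a floxed Taf4 allele, so by these sources every group carries this deletion and represents a single cultured line. The titles and the methods name this line differently, and which name holds was not settled. The study also used the parent line, which still expresses TAF4. The open name thus bears on the genotype, which rests here on the labels. No untreated library was labelled 72 h, so in the comparison of RA 72 h with untreated cells treatment and time in culture cannot be told apart. Between RA 72 h and RA 12 h, length of treatment and time in culture cannot be told apart either. Nothing in the labels says whether the replicates came from separate cultures, and p-values may then measure technical spread only.

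EGFR is a receptor tyrosine kinase of the cell surface. Ligands of the EGF family are made as membrane-anchored precursors, are released by metalloproteases, and cause EGFR to pair with itself or with ERBB2, a relative with no known ligand of its own, after which adaptor proteins carry the signal to the Ras, MAP kinase and PI3 kinase cascades. Signalling through ERK, the last kinase of the MAP kinase cascade, induces genes that end the signal, among them Errfi1 (also called Mig6), whose protein binds the active kinase domain of EGFR and blocks it. In fibroblasts EGF is a classical growth factor.

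Egfr and Errfi1 were higher in every RA library than in every untreated library at both times, Hbegf was higher at 12 h only, and Erbb2, Ereg and Areg overlapped between the groups. The upstream sequences of 3 of these genes are shown because Egfr and Errfi1 were higher together while Areg stayed near the floor of the table. They are the 250 bases before the transcription start in RefSeq, on GRCm38.p6, a later build than the mm9 positions used elsewhere in the text, written 5' to 3' on the strand of the gene. Capitals mark the motifs found on either strand: the GC box GGGCGG, the cyclic AMP response element TGACGTCA and the TATA box TATAAA.
Egfr, chr11:16751953-16752202, plus strand: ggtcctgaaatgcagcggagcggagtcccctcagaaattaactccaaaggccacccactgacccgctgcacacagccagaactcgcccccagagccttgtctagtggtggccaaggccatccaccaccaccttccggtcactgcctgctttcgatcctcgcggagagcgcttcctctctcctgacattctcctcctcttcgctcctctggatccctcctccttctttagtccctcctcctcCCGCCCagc
Errfi1, the more downstream of 2 RefSeq starts, chr4:150854820-150855069, plus strand: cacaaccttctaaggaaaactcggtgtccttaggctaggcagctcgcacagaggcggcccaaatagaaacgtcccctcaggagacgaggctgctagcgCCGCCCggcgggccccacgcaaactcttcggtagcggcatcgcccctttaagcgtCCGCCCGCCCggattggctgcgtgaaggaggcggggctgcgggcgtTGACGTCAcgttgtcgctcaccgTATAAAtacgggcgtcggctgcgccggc
Areg, chr5:91139349-91139598, plus strand: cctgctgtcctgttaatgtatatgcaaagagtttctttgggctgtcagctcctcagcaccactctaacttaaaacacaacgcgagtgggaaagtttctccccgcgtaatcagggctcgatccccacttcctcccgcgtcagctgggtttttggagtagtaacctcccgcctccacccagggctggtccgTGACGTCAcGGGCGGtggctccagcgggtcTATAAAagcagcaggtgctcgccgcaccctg

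The Egfr window held a GC box that begins at -9, counting the base before the start as -1, and had neither of the other motifs. Its GC content was 60.8%, against a median of 52.4% over the 32851 RefSeq windows of this length. The Errfi1 window had 3 GC boxes, 2 of them overlapping, with a cyclic AMP response element at -51 and a TATA box at -28. The window of the other RefSeq start of Errfi1, with a GC content of 38.0%, held none of these motifs. The Areg window had the same 3 kinds of motif, with the cyclic AMP response element at -61, a GC box at -52 and the TATA box at -31. A GC box was present in 32.7% of all windows, a TATA box in 12.4% and a cyclic AMP response element in 1.55%. The retinoid receptor half-site AGGTCA (14.0% of all windows) and the AP-1 site TGANTCA (6.75%) were not found in the windows of Egfr, Errfi1, Erbb2 or Areg, which says only that these letters are not in the 250 bases searched. The Erbb2 window held none of the motifs named here, and Ereg and Hbegf were not searched, so 4 of the 6 members are covered. The Errfi1 window shown and the Areg window thus share 3 kinds of motif, which the window of the other Errfi1 start does not. Which Errfi1 start these cells use is not known here, and no link of motifs to level or difference was tested.

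All values are reads per gene after quantile normalization by the authors, which gave every library a floor of 1, a highest value of 165593 and an identical sum (9442018.6), so the depth of sequencing is unknown and no counting error can be given. Between replicates, Spearman's rho over the 12673 genes with a mean of at least 10 was 0.981 to 0.994. In the fibroblast check, 8 of 10 marker genes had a mean of at least 100, led by Vim, while the defining genes Thy1 and Lum were near the floor. Marker lists of other cell types were low: the summed level of 7 epithelial genes, for instance, was 71.0 to 90.0 in untreated libraries, 65.6 to 87.8 at RA 12 h and 79.3 to 98.4 at RA 72 h, against 216577 to 257141 for the fibroblast list. Over the 8 libraries the endothelial list summed to 42.5 to 79.0, the haematopoietic list to 30.6 to 62.3 and the neural and melanocytic list to 45.0 to 67.4. Of 6 retinoid response genes 5 could be tested, and all 5 rose at both times (median log2 difference 3.34 at 12 h and 4.03 at 72 h); Cyp26b1, an RA-degrading enzyme, went from 59.0 to 3746 and 5391 normalised reads. In the same fit Dhrs3 rose by 3.46 and 4.60, Tgm2 by 3.34 and 4.03, Rarb by 1.76 and 2.31, and Crabp2 by 1.53 and 0.65. Taf4a was read at 984 to 1449 in all 8 libraries and Taf4b at 49.5 to 99.0; totals per gene do not show which exons are missing, so they do not check the genotype. A shared axis held 50.1% of the variance within groups and split the libraries into 2 sides of 4. The first held untreated replicates 1 and 2 with RA 12 h replicate 3 and the second library of RA 72 h. The axis went with gene span: Spearman's rho between span and the deviation from the group mean was -0.28 to -0.07 on the first side. On the second side it was 0.14 to 0.30. The axis was taken from deviations from the group means, so every group has libraries on both sides. The labels name no batch, and values within each side are given beside the differences for the 6 members only. Each such value rests on only 1 or 2 libraries per group.

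Egfr (ENSMUSG00000020122, mm9 chromosome 11, 16652206 to 16818161, plus strand) is a long gene of 166 kb with 11.3 kb of exon. Its level was 48.5, 59.4 and 47.8 normalised reads in untreated replicates 1, 2 and 3. It was 86.3, 90.9 and 106 in the 3 libraries of RA 12 h, and 109 and 111 in those of RA 72 h. No RA library came near the highest untreated value, and the 2 libraries of RA 72 h lay above all 3 of RA 12 h. The group means were 51.9 ± 6.51 (SD, n = 3), 94.5 ± 10.5 (SD, n = 3) and 109.8 ± 1.68 (SD, n = 2), ratios of 1.82 and 2.12 to untreated. On the log2(value + 1) scale, used for every difference below, Egfr was 0.85 ± 0.16 (SE) higher at 12 h and 1.07 ± 0.18 higher at 72 h, and RA 72 h stood 0.22 ± 0.18 above RA 12 h. Over all genes tested, 98.0% had a smaller signed difference at 12 h and 97.9% at 72 h. These levels are averages over a culture, in which more cells with the transcript and more transcript per cell cannot be told apart. Within the 2 sides of the shared axis the difference of Egfr was 0.97 and 0.88 at 12 h and 1.03 and 1.17 at 72 h.

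Egfr is long and was read at a modest level, so the reads scattered over gene bodies were estimated. Taking the 25th percentile of reads per Mb among genes spanning at least 200 kb as that background, it was 71.9 to 138 per Mb in untreated libraries, 101 to 135 at RA 12 h and 105 to 150 at RA 72 h. Scaled to the span of Egfr, this estimate came to 32.1% of its value in untreated cells, 21.6% at RA 12 h and 19.2% at RA 72 h. It is not a measured share, since it was taken from gene totals. For the neural gene Snap25 it was 133% of the whole untreated value and 201% of that at RA 12 h. Whether such scaling by span holds for these libraries was not tested. With the background subtracted, the difference of Egfr was larger, 1.08 at 12 h and 1.35 at 72 h. With the trend of each library with gene span removed instead, it was smaller, 0.74 at 12 h and 0.95 at 72 h. For Erbb2, Hbegf, Ereg and Errfi1 the same background was at most 1.49% of the value in any group.

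**Figure D1:**
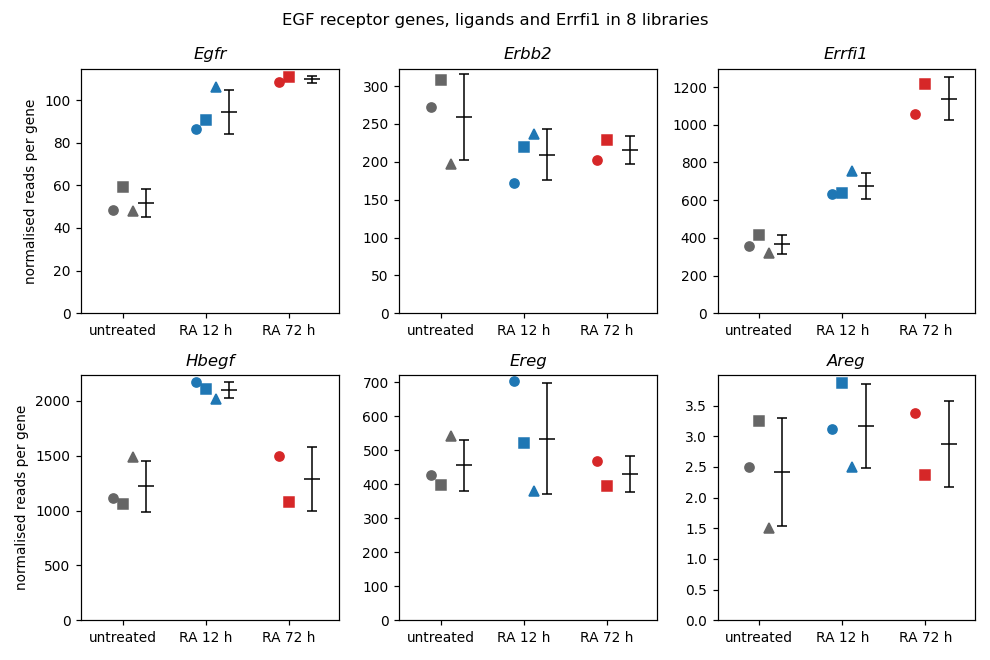
Normalised reads per gene (linear axis from 0) of the 6 genes in 8 libraries, 1 panel per gene; grey, blue and red stand for untreated, RA 12 h and RA 72 h, circles, squares and triangles for replicates 1, 2 and 3, and the bars for the mean ± SD. Egfr and Errfi1 do not overlap between untreated and RA libraries, Hbegf is high at RA 12 h alone (2018 to 2168), and Erbb2, Ereg and Areg overlap.

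Erbb2 (ENSMUSG00000062312, mm9 chromosome 11, 98273784 to 98299030, plus strand) encodes the receptor that pairs with ligand-bound EGFR. It was read at 273, 308 and 197 in the untreated libraries, at 171, 220.1 and 237 at RA 12 h, and at 202 and 228 at RA 72 h. Untreated replicate 3 fell among the RA libraries, and the groups overlapped in every comparison. The means were 259 ± 56.5, 209 ± 33.9 and 215 ± 18.5, and the differences from untreated were -0.30 ± 0.17 at 12 h and -0.25 ± 0.19 at 72 h, each under 2 SE. Within the sides its direction was not the same at 72 h: at 12 h it was -0.29 on the first side and -0.02 on the second, and at 72 h -0.34 and 0.03. Erbb2 and Egfr, on the same chromosome, thus had differences of opposite sign, of which only that of Egfr separated the groups.

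Hbegf (ENSMUSG00000024486, chromosome 18) encodes heparin-binding EGF-like growth factor, a ligand of EGFR and ERBB4. Its level was 1114, 1057 and 1487 in the untreated libraries, 2168, 2106 and 2018 at RA 12 h, and 1496 and 1081 at RA 72 h. The 3 libraries of RA 12 h were close together and above all the others, whereas the libraries of RA 72 h spanned the same range as the untreated ones. The means were 1219 ± 233, 2097 ± 75.3 and 1288 ± 294, so the ratio to untreated was 1.72 at 12 h and 1.06 at 72 h. The differences were 0.80 ± 0.14 at 12 h, 0.08 ± 0.16 at 72 h, and -0.72 ± 0.16 between RA 72 h and RA 12 h. The last of these was -0.96 without RA 72 h replicate 1 and -0.49 without replicate 2, so its size rests on which library of the pair is used, while its sign does not. Within the sides, Hbegf was 0.89 and 0.52 higher at 12 h, and -0.01 and 0.01 at 72 h.

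Ereg (ENSMUSG00000029377, mm9 chromosome 5, 91503643 to 91522675, plus strand) encodes epiregulin, which also binds EGFR and ERBB4. It was read at 428, 399.5 and 542 in untreated libraries, at 704, 522 and 379 at RA 12 h and at 467.5 and 394 at RA 72 h. Both its highest and its lowest library were in the RA 12 h group, and no comparison separated the groups. The means were 456 ± 75.3, 535 ± 163 and 431 ± 52.1, with differences of 0.20 ± 0.19 at 12 h, -0.08 ± 0.21 at 72 h and -0.27 ± 0.21 between the 2 RA groups. The sign at 12 h turned without RA 12 h replicate 1 (-0.02) and differed between the sides (-0.13 and 0.16), while at 72 h the sides gave -0.07 and -0.21.

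Areg (ENSMUSG00000029378, mm9 chromosome 5, 91568641 to 91577458, plus strand) encodes amphiregulin, a ligand of EGFR. It was near the floor of 1 everywhere, at 2.50, 3.25 and 1.50 in untreated libraries, 3.13, 3.88 and 2.50 at RA 12 h, and 3.38 and 2.38 at RA 72 h. The mean lay below the minimum of 10, so Areg was not tested, and the estimated gene-body background alone was 34.2% to 39.0% of its value. Differences between groups (0.31, 0.20 and -0.10) were within the spread of the libraries, and within the sides they had opposite signs, -0.14 and 0.84 at 12 h and -0.19 and 0.81 at 72 h. Areg and Ereg lie in a cluster of 4 ligand genes over 375 kb of chromosome 5, in the order Epgn, Ereg, Areg and Btc. Only Ereg had a mean of at least 10 there (479 over the 8 libraries), against 4.52 for Epgn, 2.81 for Areg, 46.0 kb from the end of Ereg, and 7.45 for Btc.

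Errfi1 (ENSMUSG00000028967, mm9 chromosome 4, 150228028 to 150243001, plus strand), the feedback inhibitor, had the largest difference of the 6 genes. It was read at 359, 416 and 319.9 in untreated libraries, at 635, 638 and 755 at RA 12 h, and at 1058 and 1218 at RA 72 h. The 3 groups were separate from each other, in the order untreated, RA 12 h and RA 72 h. The means were 365 ± 48.2, 676 ± 68.6 and 1138 ± 114, ratios of 1.85 and 3.12 to untreated and of 1.68 between the RA groups. The differences were 0.89 ± 0.12 at 12 h, 1.64 ± 0.14 at 72 h and 0.75 ± 0.14 between 72 h and 12 h, and 99.3% of the genes tested had a smaller signed difference at 72 h. Leaving out any library kept the difference between 0.80 and 0.99 at 12 h and between 1.54 and 1.74 at 72 h. Within the sides it was 0.97 and 0.99 at 12 h, and 1.65 and 1.72 at 72 h. At 12 h the differences of Egfr, Hbegf and Errfi1 lay within 0.80 to 0.89, whereas at 72 h they were 1.07, 0.08 and 1.64.

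**Figure D2:**
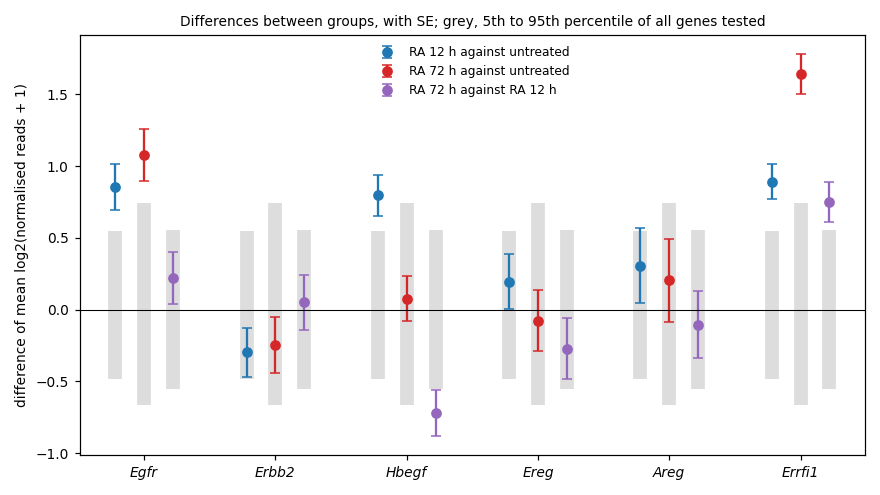
Difference of mean log2(normalised reads + 1) of each gene for RA 12 h against untreated (blue), RA 72 h against untreated (red) and RA 72 h against RA 12 h (purple), with SE; grey bars span the 5th to the 95th percentile of the 12673 genes tested. Egfr and Errfi1 lie above the grey bar in both comparisons with untreated cells, Hbegf lies above it at 12 h (0.80) and below it for 72 h against 12 h (-0.72), and Erbb2, Ereg and Areg stay inside.

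As a count, 3 of the 6 genes (Egfr, Hbegf and Errfi1) had RA 12 h values above every untreated value, a state found in 9.42% of all genes tested. At 72 h 2 genes (Egfr and Errfi1) did so, against 17.2%. Between RA 72 h and RA 12 h, Egfr and Errfi1 lay higher without overlap (18.1% of all genes) and Hbegf lower (19.2%). In the limma fit of all genes, 3 of the 5 members tested had an adjusted p below 0.05 at 12 h (4.37% of all genes), 2 at 72 h (11.5%) and 2 between the RA groups (5.84%). At 72 h 2 were also at least 2-fold higher (Egfr and Errfi1), as were 2.15% of all genes tested, and Egfr was below 2-fold with the trend with gene span removed (0.95). Since the genes were proposed from these same contrasts, these counts are no test of the members, and nothing is read from them. All 3 comparisons share libraries in pairs, so the values of one are not independent of those of the next.

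Per kb of exon, the scale on which genes can be compared if reads were spread along transcripts, Hbegf was the highest of the 6 genes in untreated cells at 514 ± 98.4 normalised reads per kb. Ereg (110.3 ± 18.2) and Errfi1 (102 ± 13.5) followed and did not differ beyond their spread, then Erbb2 (49.8 ± 10.8), Egfr (4.58 ± 0.57) and Areg (2.02 ± 0.73). At RA 12 h Hbegf stood at 884 ± 31.7, Errfi1 at 189 ± 19.2 and Ereg at 129 ± 39.4. At RA 72 h Errfi1 (318 ± 31.7) was next to Hbegf (543 ± 124), above Ereg (104 ± 12.6). Erbb2 exceeded Egfr on this scale in each group: the levels of Erbb2 were 40.2 ± 6.51 and 41.3 ± 3.55 at RA 12 h and 72 h, and those of Egfr 8.34 ± 0.92 and 9.70 ± 0.15. The labels describe libraries of tags next to DpnII sites, for which level does not scale with length, and the study's methods describe fragmented RNA, for which it does, so this order between genes holds only on the second description.

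**Figure D3:**
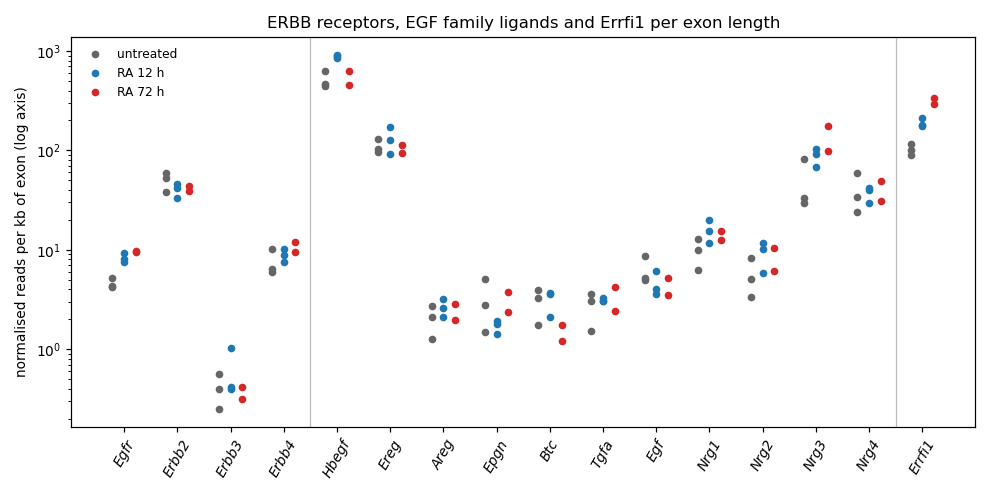
Normalised reads per kb of exon (log axis) of the ERBB receptors, the EGF family ligands and Errfi1, each point a library, grey untreated, blue RA 12 h and red RA 72 h. Hbegf (group means 514 to 884) leads the ligands, Egfr (4.58 to 9.70) lies below Erbb2 (40.2 to 49.8), and Errfi1 is higher from group to group.

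Among the other receptors, Erbb3 was near the floor (1.50 to 6.13 normalised reads) and Erbb4 was read at 74.0 to 148. Erbb4 spans 1076 kb, and the estimated gene-body background was 103% to 120% of its value, so no level above that background is shown. Its differences were 0.27 at 12 h and 0.53 at 72 h (limma adjusted p = 0.558 and 0.176). Of 8 ligand genes outside the members, Btc and Epgn were too low to test. At 12 h none of the 6 tested ligands passed the adjusted p of limma (2 had an unadjusted p below 0.05), and at 72 h 1 rose: Nrg3, a neuregulin, went from 197 ± 119.9 to 561 ± 228 normalised reads (1.60 ± 0.36, adjusted p = 0.0109). Nrg3 spans 1104 kb and its background was 56.3% of the untreated value and 25% at RA 72 h. Its call was lost without untreated replicate 1 (1.42, adjusted p = 0.0562) or RA 72 h replicate 1 (1.18, adjusted p = 0.156), without the variance trend (adjusted p = 0.0687) and with the background subtracted (2.62, adjusted p = 0.0688). At 12 h it was 0.98 higher (adjusted p = 0.127), and was called without untreated replicate 3 (1.44). Nrg1 (0.71 and 0.57 at 12 h and 72 h), Nrg2 (0.73 and 0.60), Nrg4 (0.01 and 0.11), Tgfa (0.25 and 0.28) and Egf itself (-0.43 and -0.48) did not pass at either time. Per kb of exon the highest ligand genes in untreated cells were Hbegf, Ereg, Nrg3 (48.6 ± 29.5) and Nrg4 (38.9 ± 17.9), the last pair within their spread, while Egf stood at 6.24. The background was 4.53% of the untreated value of Nrg4, against the 56.3% of Nrg3.

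The rest of the pathway was described by 71 genes in 7 lists, of which 64 were tested with limma. At 12 h 4 rose and 3 fell by the adjusted p alone (10.9%, against 4.37% of all genes), with a median difference of 0.01 against -0.02 over all genes. At 72 h 5 rose and 2 fell (10.9%, against 11.5%; median 0.08 against -0.02), and between 72 h and 12 h 1 rose and 1 fell (3.12%, against 5.84%; median 0.04 against 0.00). With the 2-fold minimum, 1 was called higher and 1 lower at 12 h (1.42% of all genes called) and 2 higher and 1 lower at 72 h (3.67%), and between the RA groups no gene was called by limma (1.50% of all genes; 8 of the 64 had an unadjusted p below 0.05). The genes below that passed the adjusted p without the 2-fold minimum were chosen for naming after their values were seen.

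Of 15 negative regulators tested besides Errfi1, 2 passed the adjusted p, and these had opposite signs. Dusp1, a phosphatase of the MAP kinases, was read at 3887, 2852 and 3088 in untreated libraries, 7831, 6707 and 7181 at RA 12 h and 7303 and 5445 at RA 72 h. It rose by 1.15 ± 0.14 at 12 h (limma adjusted p = 0.00017) and by 0.96 ± 0.15 at 72 h (adjusted p = 0.0011), where it was short of 2-fold, though not without untreated replicate 1 (1.09) or RA 72 h replicate 2 (1.17). Dusp6, a phosphatase of ERK whose own gene is induced by ERK signalling, was read at 137, 127 and 143, then at 56.6, 62.6 and 68.5, and then at 55.4 and 64.1. Dusp6 fell by 1.11 ± 0.15 at 12 h (adjusted p = 0.000643) and by 1.17 ± 0.17 at 72 h (adjusted p = 0.000558). Every RA library was thus above the untreated ones for Dusp1 and Errfi1 and below them for Dusp6. The other 13 negative regulators tested did not pass at either time. Of all 15, Dusp1 and Dusp6 included, 3 had an unadjusted limma p below 0.05 at 12 h and 4 at 72 h.

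In the cascades, Pik3r1, a regulatory subunit of PI3 kinase, rose from 187 ± 14.6 to 362 ± 45.6 at 12 h (0.94 ± 0.12, limma adjusted p = 0.000386) and to 394 ± 4.77 at 72 h (1.07 ± 0.14, adjusted p = 0.000202). It was past 2-fold at 72 h, and also at 12 h without RA 12 h replicate 1 (1.05). Pik3cb, a catalytic subunit, rose by 0.51 at 12 h (adjusted p = 0.0204), which was lost in 6 of 18 alternative fits, among them those without untreated replicate 1 (0.45) or 2 (0.48) or RA 12 h replicate 1 (0.47) or 2 (0.49). Among 12 receptor-proximal adaptors and endocytic genes, Shc1, an adaptor of EGFR, fell by 0.69 ± 0.14 at 12 h (adjusted p = 0.00864) and by 0.53 ± 0.15 at 72 h (adjusted p = 0.0384). The first was lost in 5 of 18 fits, among them without untreated replicate 1 (-0.66) or RA 12 h replicate 1 (-0.62) or 2 (-0.66). The second was lost in 10 of 18, among them without untreated replicate 1 (-0.50) or 2 (-0.47), RA 12 h replicate 1 or 2 (both -0.53) or RA 72 h replicate 1 (-0.29). Ptpn11, the adaptor-list gene with the highest mean, differed by 0.12 and 0.23 and did not pass. The list of ligand-shedding proteases and their partners had no gene past the limma adjusted p (6 tested; 1 with an unadjusted p below 0.05 at 12 h and 3 at 72 h), and its most abundant gene, Adam9, differed by -0.09 and 0.19.

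**Figure D4:**
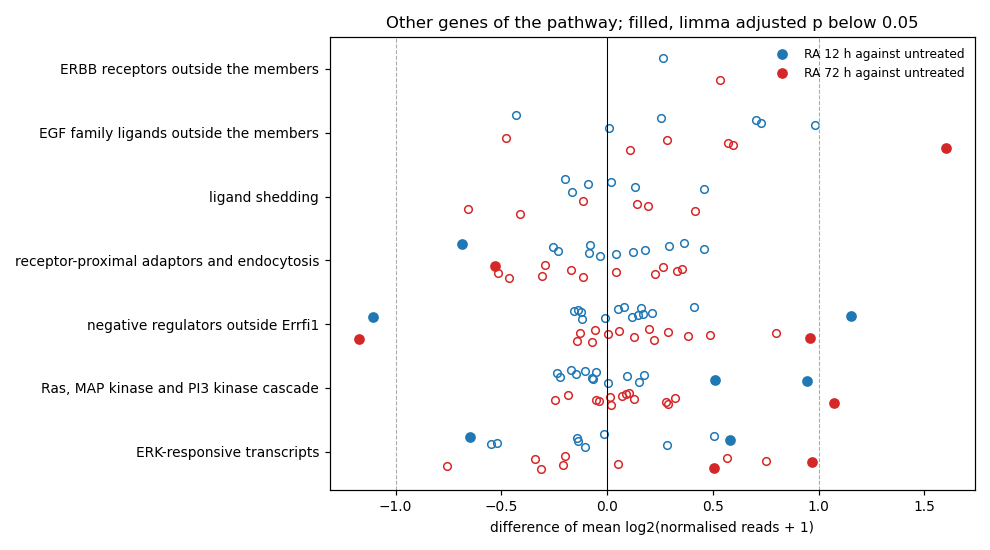
Difference of mean log2(normalised reads + 1) for each tested gene of 7 pathway lists, blue for RA 12 h and red for RA 72 h against untreated; filled points have a limma adjusted p below 0.05 and dashed lines mark 2-fold. Points lie on both sides of 0 in the longer lists, and the filled ones beyond 2-fold are Dusp1 (1.15 at 12 h), Dusp6 (-1.11 and -1.17), Pik3r1 (1.07 at 72 h) and Nrg3 (1.60 at 72 h).

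Genes that respond to ERK differed among themselves, with medians over the 10 tested of -0.12 at 12 h and -0.07 at 72 h. Of these 10, 3 had a difference above 0 at 12 h and 5 at 72 h. At each time 5 had an unadjusted limma p below 0.05. Phlda1 was read at 805, 815 and 738 in untreated libraries, at 1249, 1126 and 1151 at RA 12 h and at 1523 and 1559 at RA 72 h. It rose by 0.58 ± 0.09 at 12 h (adjusted p = 0.00208) and by 0.97 ± 0.10 at 72 h (adjusted p = 4.21e-05), in all 18 alternative fits each. Etv4, an ETS transcription factor, fell by 0.65 ± 0.13 at 12 h (adjusted p = 0.00759), lost without untreated replicate 1 (-0.61) or RA 12 h replicate 2 (-0.64). Ccnd1, cyclin D1, the most abundant of the list, rose by 0.50 ± 0.12 at 72 h (adjusted p = 0.0147), lost in 4 of 18, among them without RA 72 h replicate 1 (0.42) and untreated replicate 1 (0.43). The list name describes known regulation and does not measure ERK activity here.

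**Figure D5:**
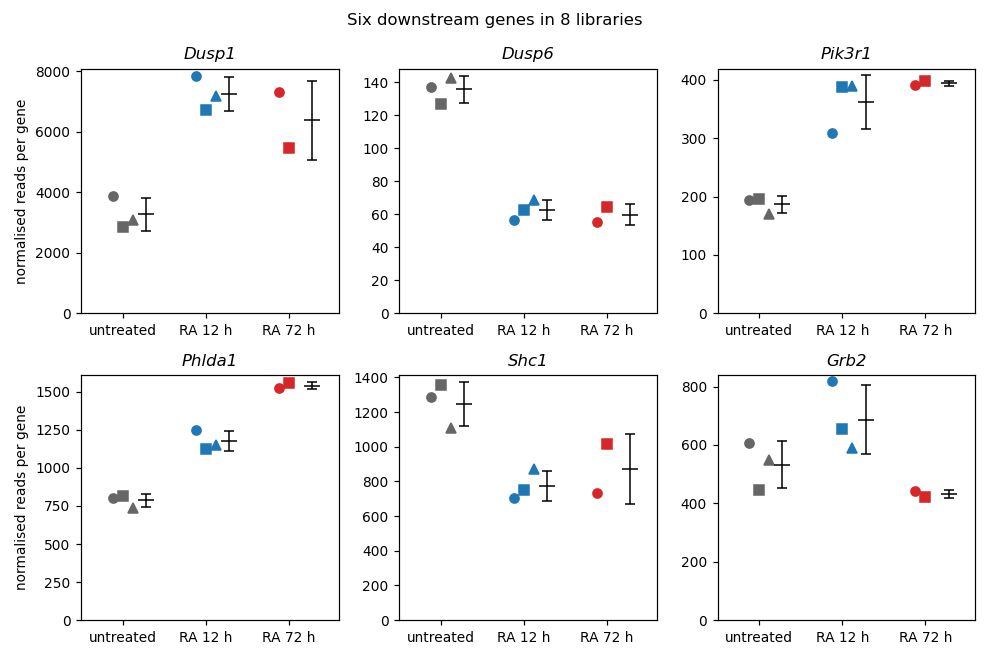
Normalised reads per gene (linear axis from 0) of Dusp1, Dusp6, Pik3r1, Phlda1, Shc1 and Grb2 in 8 libraries, with colours, symbols and mean ± SD bars by group and replicate as in the plot of the 6 EGF receptor genes. Dusp1, Pik3r1 and Phlda1 are higher in every RA library than in every untreated one, and Dusp6 and Shc1 are lower. Grb2 lies just below the untreated values at RA 72 h only (421 and 442, against 445 to 606). That Grb2 difference from untreated did not pass in limma (-0.29, adjusted p = 0.289).

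The genes whose pattern over the 8 libraries was most like that of each member were sought among 413 genes with a mean of at least 50 and an SD of at least 0.5 on the log2 scale. For Egfr they were Cgnl1 (Pearson's r = 0.992), Epn2 (0.989) and Hs3st1 (0.98), and for Errfi1 Twist2 (0.995), Sord (0.993) and Nid1 (0.991). For Hbegf they were Als2cl (0.984), Chst11 (0.956) and Rai14 (0.937). Als2cl, for example, went from a mean of 330 to 634 and 315 normalised reads, highest at RA 12 h like Hbegf, and Twist2 from 225 to 408 and 617. For the members whose groups overlapped, Erbb2 was nearest to Atp5sl (0.917), Timp1 (0.892) and Rnf167 (0.874), and Ereg to AL824710.10 (0.838), Efcab6 (0.825) and AC155722.9 (0.823). Erbb2 and Ereg did not themselves reach the SD of 0.5 asked of the genes searched. Genes that varied as little as these members were thus left out, and nothing is read from their lower r. These correlations describe 8 libraries in 3 groups that share a normalization, and a difference between groups alone gives a high r.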

How the data were processed

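Transcripts of TAF4-/- MEFs were measured by sequencing in 8 libraries of 3 groups (3 untreated, 3 at RA 12 h, 2 at RA 72 h), although the series describes 7 samples in its design. The authors deposited a normalised score per Ensembl gene, reads after quantile normalization: the sorted values of all 8 columns were identical, with steps of 0.125 and a floor of 1 taken by 2883 genes in each library, so they are not counts and no count test was used. According to their methods, the authors mapped reads to mm9 with Tophat, quantified them with Cufflinks and normalised them with DESeq. The methods thus name another normalization than the one seen in the deposited values, and this difference was not settled. For the later RA treatment the methods give a shorter time than 72 h, which the labels and the results of the study give and which was followed here; the methods also name line C3, whereas the labels describe DpnII tags and the titles carry cl1. Columns of the authors' group means and log2 ratios were not used, nor was 1 line without a gene.

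After log2(value + 1), the 12673 of 22200 genes whose mean reached 10 entered one linear model of the 3 groups in limma 3.58.1 (R 4.3.3) with a variance trend, without a replicate block. Tests were two-sided with Benjamini-Hochberg adjustment over all genes tested; a gene was called at an adjusted p below 0.05 and at least 2-fold. SE come from this fit, except for Areg, from its libraries. The script was tested on simulated data. Positions are from the mm9 annotation (96.7% of genes matched), and the 250-base upstream windows from RefSeq on GRCm38.p6. The members and the pathway lists were chosen with earlier results of these data known, and 1 gene of the lists is not reported here. Named genes were the members, all other ERBB receptors and ligands, genes called in the other lists or else the highest of a list, the 3 most similar patterns, Taf4a, Taf4b and the retinoid response genes. Alternatives were other pseudocounts (10 and 0.5), other filters, each library left out, a replicate block, the side of the shared axis, removal of the trend with gene span, only the groups compared, no variance trend, and subtraction of the gene-body background, the last chosen after seeing the data.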

Additional observations from a re-analysis of the deposited data

Results flagged for a closer look

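In 2 pathway genes the change at 72 h and the change at 12 h differed by the limma test of RA 72 h against RA 12 h. Grb2, the adaptor that links the receptor to Ras, was 0.66 lower at 72 h than at 12 h on the log2 scale (-0.66 ± 0.16, adjusted p = 0.0265), with 818, 653 and 589 normalised reads at RA 12 h and 442 and 421 at RA 72 h; 7 of 18 alternative fits lost it, among them those without RA 12 h replicate 1 (-0.52) or 2 (-0.68) or RA 72 h replicate 1 (-0.69) or 2 (-0.62). Phlda1 was higher at 72 h by 0.39 ± 0.10 (adjusted p = 0.0449), lost in 9 of 18 alternatives, among them those without untreated replicate 1 or any single RA library (0.36 to 0.44). Because both changes share the untreated group, their difference equals RA 72 h minus RA 12 h.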

How the results depend on the processing

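The log2 differences of the 6 genes were recomputed under 18 alternatives (17 for Areg, which a mean of at least 50 leaves out), and the differences of Egfr, Errfi1 and Hbegf at 12 h, and of Egfr and Errfi1 at 72 h, kept their sign in all of them. Subtracting the gene-body background moved Egfr by more than its replicate spread, to 1.08 at 12 h and 1.35 at 72 h, while removing the trend with gene span lowered it to 0.74 and 0.95. Leaving out 1 library gave Hbegf -0.96 to -0.49 for RA 72 h against RA 12 h. Genes called numbered 148 to 322 at 12 h when 1 library was left out (322 without untreated replicate 3), against 180. At 72 h the highest count, 641 against 465, was also reached without untreated replicate 3. Among genes with a mean of at least 50, 297 were called at 72 h, under a filter that tests fewer genes. With the trend with gene span removed, 5 pathway genes were called at 72 h in place of 3, and the cause was not tested. Same-numbered replicates did not deviate together (2 of 7 pairs had r above 0.1, from -0.47 to 0.42), so the numbers were not taken to pair samples; a fit with a replicate block called 174, 430 and 172 genes in the 3 comparisons, and in it Errfi1 differed by 0.75 between RA 72 h and RA 12 h. With 2 or 3 libraries per group and depth unknown, small differences such as those of Erbb2, Ereg and Areg were not detectable beyond the spread.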
